A study of Mus musculus with 24 samples.

Results

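Levels of 8 hepatobiliary transcription factors were described in mouse liver ductal cells (DCs), in the stromal fractions sorted around them and in both cell types after culture. The 8 genes, chosen by symbol, were Sox9, Sox4, Hnf4a, Foxa1, Foxa2, Foxa3, Onecut1 and Prox1, out of 49568 genes listed in each of the 2 tables. The homeostasis experiment held 12 samples from healthy livers of 3 adult littermates aged 12 weeks, mice A and E (male) and F (female), on a C57BL/6 background and all heterozygous for the Pdgfra reporter allele Pdgfratm11(EGFP)Sor, which puts a nuclear green fluorescent protein under control of the Pdgfra locus. From each mouse CD45−CD31−CD11b− cells were sorted into EpCAM+ DCs and into PDGFRα+SCA1+, PDGFRα+SCA1− and PDGFRα−SCA1+ fractions (n = 3 each). The transwell experiment held 12 samples from wild-type C57BL/6 mice aged 8 to 12 weeks, 2 in each of 6 groups. These were freshly sorted EpCAM+ DCs (DC day 0), DCs grown for 15 days in a growth factor-rich expansion medium (EM organoids), DCs grown for 15 days in a mesenchymal medium (MM) on an insert above SCA1+ mesenchymal cells (co-cultured organoids), and the SCA1+Msc themselves freshly sorted, after 15 days alone, or after 15 days below the DCs. By the study's methods the SCA1+Msc were expanded on the plate in MM before the DCs were added, a step that the labelled 15 days may not include. SCA1+Msc were gated on SCA1 and not on PDGFRα, and the DCs and the SCA1+Msc each came from a pair of littermates. Co-cultured and EM organoids differed both in medium and in the presence of SCA1+Msc, and these cannot be told apart here, since DCs grown alone in MM were not among these samples.

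During liver development DCs and hepatocytes arise from one bipotent progenitor, the hepatoblast, and transcription factors that bind regulatory DNA set which fate is taken. SOX9 and SOX4 are SRY-box factors of the developing bile duct, ONECUT1 (HNF6) is a cut-homeobox factor that acts in duct formation, HNF4A is a nuclear receptor that drives hepatocyte genes, FOXA1, FOXA2 and FOXA3 are forkhead factors that open closed chromatin at liver genes, and PROX1 is a homeobox factor of hepatoblasts and hepatocytes and the marker and master regulator of lymphatic endothelium.

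The stretches before annotated starts of 4 of the genes are shown. Foxa2, Onecut1 and Foxa1 passed the test against DC day 0 in both kinds of organoid, as did Prox1, which is not shown, whereas Hnf4a passed in neither. Some calls of Foxa2, Foxa1 and Prox1 were lost without a single library, and Hnf4a passed under some other settings, as given below. Each stretch was read from RefSeq on GRCm38.p6, 5′ to 3′ on the strand of the gene, without bases that lie in annotated exons. Capitals mark a match to one of 7 motif spellings searched on both strands: TGTTTAC and TATTTAC for FOXA, ATCAAT and ATCGAT for ONECUT, CAAAGTCCA for HNF4, and ACAATGG and ACAAAGG for SOX.
Foxa2, chr2:148046970-148047219, minus strand: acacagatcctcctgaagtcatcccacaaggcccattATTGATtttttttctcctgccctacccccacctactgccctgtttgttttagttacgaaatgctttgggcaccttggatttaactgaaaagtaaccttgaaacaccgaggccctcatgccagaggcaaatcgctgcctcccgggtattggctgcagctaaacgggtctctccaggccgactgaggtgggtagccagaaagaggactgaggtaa
Onecut1, chr9:74861671-74861920, plus strand: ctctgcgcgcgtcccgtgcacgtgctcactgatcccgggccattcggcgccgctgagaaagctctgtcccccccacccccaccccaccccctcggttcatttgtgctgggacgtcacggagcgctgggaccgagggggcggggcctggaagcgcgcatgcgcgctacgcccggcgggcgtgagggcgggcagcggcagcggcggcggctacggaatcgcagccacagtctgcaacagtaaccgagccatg
Foxa1, chr12:57546122-57546361, minus strand: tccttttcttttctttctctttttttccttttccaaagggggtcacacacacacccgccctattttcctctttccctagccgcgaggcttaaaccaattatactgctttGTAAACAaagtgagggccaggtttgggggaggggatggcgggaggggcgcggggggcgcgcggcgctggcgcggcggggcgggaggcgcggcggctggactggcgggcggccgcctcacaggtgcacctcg
Hnf4a, chr2:163506607-163506807, plus strand: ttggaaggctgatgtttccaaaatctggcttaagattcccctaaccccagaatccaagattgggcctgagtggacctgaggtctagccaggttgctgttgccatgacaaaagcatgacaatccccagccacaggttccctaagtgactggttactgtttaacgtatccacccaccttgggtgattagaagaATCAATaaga
The Foxa2 stretch held the ONECUT spelling ATCAAT on its other strand, read as ATTGAT, and the Hnf4a stretch held ATCAAT as such. ATCAAT was present in 6.72% of 32851 promoter windows, which keep their exon bases and are 250 bases long, whereas the trimmed stretches of the members are 132 to 250. The Foxa1 stretch held the FOXA spelling TGTTTAC on its other strand, read as GTAAACA, a spelling found in 3.17% of windows. That stretch precedes a RefSeq start but lies inside the Foxa1 gene of the GENCODE M21 annotation, outside its exons. No spelling was found in the Onecut1 stretch. Of 11 windows for 7 of the genes, 1 other held a match, an ACAAAGG before a second start of Prox1, a spelling in 5.08% of windows. These are matches of letters only.

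All 8 genes are protein-coding in the GRCm38 annotation (GENCODE M21): Sox9 at chr11:112782224-112787760 (plus strand), Sox4 at chr13:28948919-28953713 (minus), Hnf4a at chr2:163506808-163572910 (plus), Foxa1 at chr12:57540628-57546916 (minus), Foxa2 at chr2:148042877-148046969 (minus), Foxa3 at chr7:19013284-19023538 (minus), Onecut1 at chr9:74861921-74891781 (plus) and Prox1 at chr1:190118035-190170714 (minus). The libraries do not mark strand. Exons of Sox4 overlap 2616 bases of Gm26735 and exons of Onecut1 overlap 2171 bases of Gm20649; both neighbours were listed at 0 in all 24 samples, so the Sox4 and Onecut1 levels are uncertain where reads in the overlap were not assigned. Prox1 shares 133 bases with the antisense gene Prox1os.

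The reads assigned to genes, recovered from the deposited values, numbered 19600000 to 25700000 per homeostasis sample and 19300000 to 28100000 per transwell sample. Homeostasis levels are given as deposited, on a scale close to TPM (transcript abundance corrected for gene length and library total), and transwell levels are TPM. The deposited values are 0.722 to 1.39 times TPM, by a factor that differs between samples of a gene, so folds between homeostasis groups carry it. A level of 3 reads or fewer is called near the floor. The labels held against their markers: DCs had Krt19 at 2329 and Epcam at 3032, and the summed level of 18 ductal genes in the PDGFRα+ fractions was 0.227% to 0.566% of the DC mean. The sum of 12 mesenchymal genes was 31890 to 54869 in the PDGFRα+ fractions, 759 to 1236 in PDGFRα−SCA1+ and 57.9 to 84.5 in DCs. The transwell labels call the SCA1+Msc mesenchymal SCA1+ ductal cells; this sum was 26684 to 46296 TPM in them and 95.4 and 116 TPM in DC day 0, and their ductal sum was at most 5.31% of DC day 0. The library of PDGFRα−SCA1+ from mouse E stood apart, with the ductal sum at 4.65% of the DC mean against 0.174% and 0.678% in mice A and F. The PDGFRα−SCA1+ fraction expressed endothelial genes (12 of 12 higher than in DCs). The sum of 20 hepatocyte genes was above 0 in every group, though up to 7 of them were listed at 0 throughout a group (SCA1+Msc alone). Beside the DC mean the sum was 41.9% to 122% in PDGFRα−SCA1+. In DCs it was 6843 to 7752. In PDGFRα+SCA1+ it was 401 to 2551 with a median of 459, and in PDGFRα+SCA1− 826 to 1458. In SCA1+Msc day 0 it was 27919 and 34007 TPM against 5467 and 7052 in DC day 0. In sorted bulk samples, fewer cells of a type and less RNA per cell cannot be told apart.

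In freshly sorted DCs of the homeostasis experiment Sox9 was the most abundant of the 8 genes and Onecut1 the least. To compare genes, TPM was restored from the deposited values, in which library totals had been reused along the rows; on that scale mean levels in DCs were 459 for Sox9, 310 for Hnf4a, 99.7 for Foxa1, 97.8 for Sox4, 66.9 for Prox1, 29.2 for Foxa2, 24.9 for Foxa3 and 4.91 for Onecut1. In DC day 0 of the transwell experiment, sorted from other mice, Sox9 (512 TPM) and Hnf4a (189 TPM) were again first, Foxa2 (22.2), Foxa3 (17.2) and Onecut1 (2.01) were again last, and Foxa1 at 34.0 TPM stood below Sox4 (86.8) and Prox1 (41.6). The 2 experiments were processed separately, so levels are not tested between them.

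All 8 factors were lower in both PDGFRα+ fractions than in DCs. In PDGFRα+SCA1+ cells 8 of 8 fell past an adjusted p of 0.05 by limma on log2(level + 1), where 14% of 17028 genes tested were lower and 23.8% differed in either direction. In PDGFRα+SCA1− cells 8 of 8 were lower, against 18.9% of genes tested lower and 28.8% in either direction (34.6% of its calls over all genes were higher, and 46.1% after quantile normalization). In the PDGFRα−SCA1+ fraction 6 of 8 were lower, against 11.3% lower and 22.8% in either direction, and Sox4 and Onecut1 did not pass. These 3 comparisons share the DC samples, and Foxa1, Foxa2 and Onecut1 reached the level needed for testing only through the DCs. The direction of their tests was thus largely set by that filter, in these counts and in the medians that follow. Of the others, Sox9, Hnf4a, Foxa3 and Prox1 were called lower in all 3 fractions and Sox4 in both PDGFRα+ fractions. The medians over the 8 genes were −3.60, −4.72 and −3.66 on the log2 scale in the 3 fractions in that order, beside medians over all genes of −0.28, −0.47 and −0.045.

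**Figure D1:**
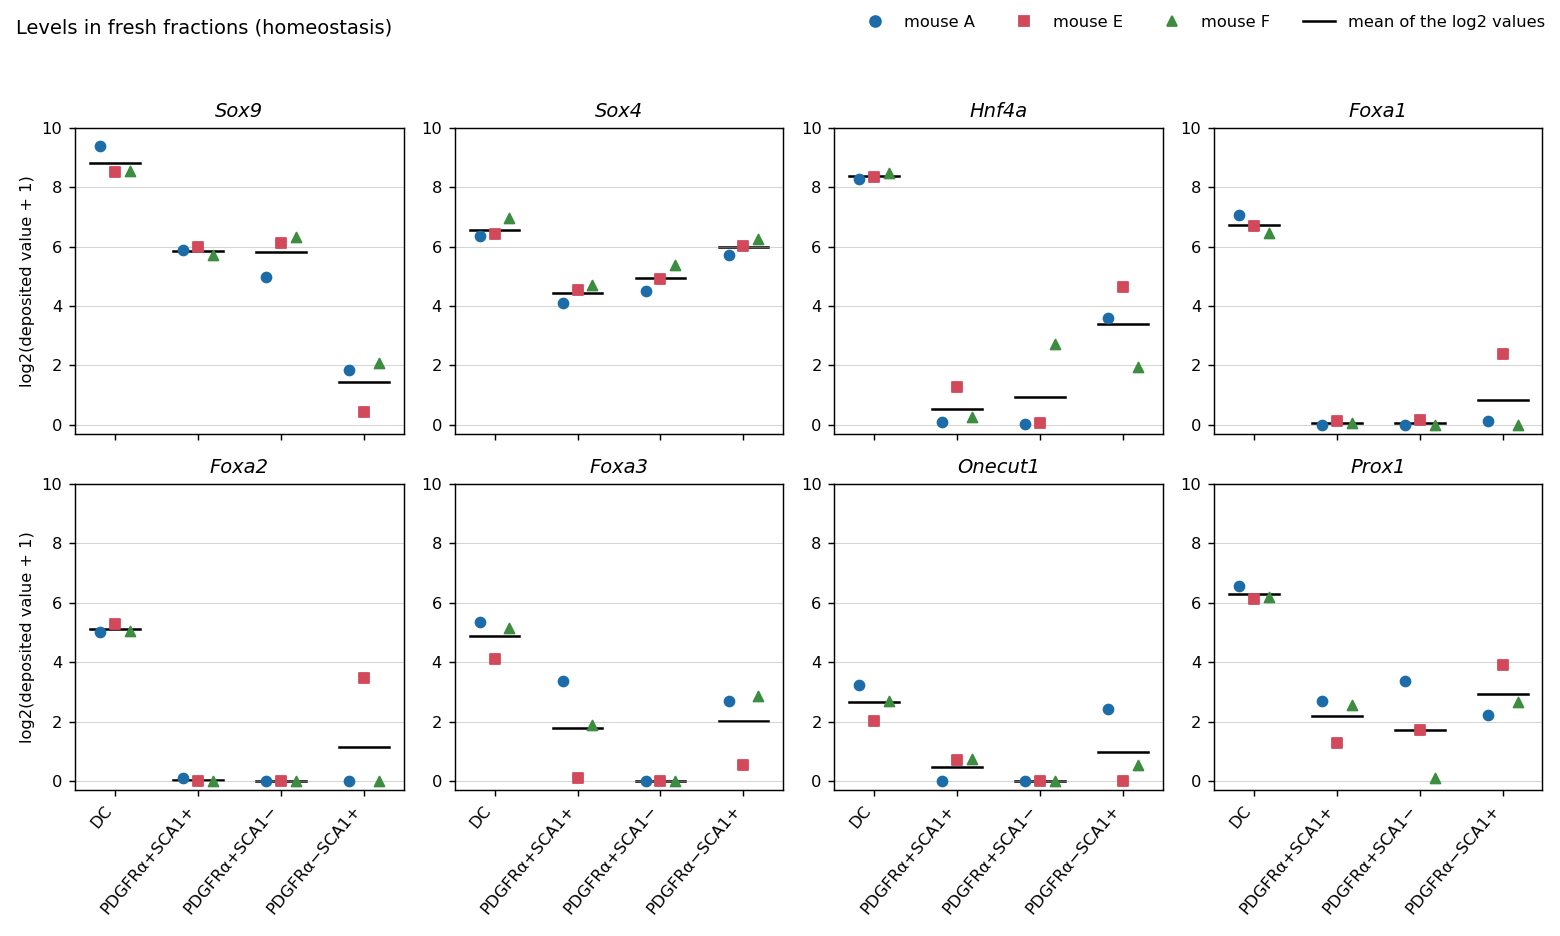
Levels of the 8 factors in each of the 12 homeostasis samples, as log2(deposited value + 1), with one panel per gene, points for mice A, E and F, and a line at the mean of the log2 values (n = 3). Sox9 stays at 30.5 or above in the PDGFRα+ fractions and is at 3.22 or below in PDGFRα−SCA1+, while Sox4 in PDGFRα−SCA1+ lies between 51.9 and 75.3.

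Sox9 and Sox4 were the only members well above the floor in the PDGFRα+ fractions in all 3 mice. Sox9 levels in DCs were 663, 366 and 377 in mice A, E and F. In PDGFRα+SCA1+ cells they were 58.2, 61.9 and 52.1, and in PDGFRα+SCA1− cells 30.5, 69.1 and 78.9. All DC samples lay above all PDGFRα+ samples, which overlapped each other. The difference from DCs was −2.95 ± 0.48 (SE) for PDGFRα+SCA1+ (adjusted p = 0.000661, limma; 8.16-fold lower) and −3.01 ± 0.48 for PDGFRα+SCA1− (adjusted p = 0.000528, limma; 7.87-fold lower), so Sox9 kept 12.2% and 12.7% of its DC level where the summed ductal genes kept 0.254% and 0.477%. On restored TPM Sox9 averaged 459 in DCs, 67.1 in PDGFRα+SCA1+ and 68.9 in PDGFRα+SCA1−. In PDGFRα−SCA1+ cells Sox9 was at 2.63, 0.335 and 3.22, below every other sample. It was 227-fold lower than in DCs (−7.37, adjusted p = 7.15e-07, limma) and 27.9-fold lower than in PDGFRα+SCA1+ cells (−4.41, adjusted p = 4.59e-05, limma), the latter comparison having 18.8% of genes called, 10.9% higher and 7.86% lower (58.1% of calls higher, and 45.7% after quantile normalization). Its library from mouse E, in which the ductal sum was highest, had the lowest Sox9 level.

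Sox4 had another order. It was 80.2, 85.2 and 123 in DCs, 51.9, 64.1 and 75.3 in PDGFRα−SCA1+, 21.7, 28.8 and 40.7 in PDGFRα+SCA1−, and 16.2, 22.2 and 25.2 in PDGFRα+SCA1+. DCs and PDGFRα−SCA1+ did not overlap, but their difference did not pass the test (−0.58, 95% interval −1.28 to 0.13, adjusted p = 0.246, limma). PDGFRα−SCA1+ was 3.0-fold above PDGFRα+SCA1+ (1.55, adjusted p = 0.00518, limma). The PDGFRα+ fractions were 4.53-fold (SCA1+) and 3.16-fold (SCA1−) below DCs (adjusted p = 0.000422 and 0.00236, limma). They overlapped each other. Sox4 and Sox9 therefore stood in opposite order between the PDGFRα+SCA1+ and PDGFRα−SCA1+ fractions.

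Hnf4a was at 311, 325 and 354 in DCs and at 5.53 or below in the PDGFRα+ samples, some of them near the floor. In PDGFRα+SCA1+ it was 0.0655, 1.42 and 0.2, and in PDGFRα+SCA1− it was 0.0285, 0.0327 and 5.53, so that the mouse F library carried that group. The log2 differences from DCs were −7.83 ± 0.81 and −7.44 ± 0.81 (adjusted p = 1.96e-05 and 2.80e-05, limma). In PDGFRα−SCA1+ cells Hnf4a was at 11.1, 23.8 and 2.82, 26.3-fold below DCs (adjusted p = 0.000693, limma) and above every PDGFRα+SCA1+ sample (2.84, adjusted p = 0.0287, limma). The last call rested on single libraries: without PDGFRα−SCA1+ of mouse E it was 2.22 (adjusted p = 0.113, limma), and it was also lost without that of mouse A or without PDGFRα+SCA1+ of mouse A or F. Across the PDGFRα−SCA1+ samples the hepatocyte sum was 59.8%, 122% and 41.9% of the DC mean in mice A, E and F, in the same order of samples as Hnf4a. Its part in the Hnf4a level was not tested.

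The 3 FOXA genes were set apart by their traces outside DCs. Foxa1 was 133, 102 and 87.9 in DCs of mice A, E and F, and at 3 reads or fewer in all 6 PDGFRα+ samples. Foxa2 was 31.1, 38.3 and 32.3 in DCs, at 1 read in 1 of the PDGFRα+ samples and listed at 0 in the others. Both reached the level needed for testing only through the DCs, so the direction of their tests against DCs was largely set by that filter. Both differed from DCs in both fractions with adjusted p at or below 0.000471 (limma). A fold at the floor would depend on that floor. Against the floor of 3 reads per library, Foxa2 was at least 162-fold lower in PDGFRα+SCA1−. In PDGFRα−SCA1+ cells the mouse E library alone carried them, with Foxa1 at 4.26 and Foxa2 at 9.98, where mice A and F had 2 reads or fewer of Foxa1 and none of Foxa2. That library is the one with 4.65% of the ductal sum, and the part of the ductal genes in these levels was not tested. Foxa3 was 40.2, 16.1 and 34.6 in DCs. It was listed at 0 in all PDGFRα+SCA1− samples, at least 121-fold lower (adjusted p = 0.00108, limma), yet at 9.42, 0.0837 and 2.67 in PDGFRα+SCA1+ and at 5.52, 0.445 and 6.22 in PDGFRα−SCA1+. The Foxa3 differences from DCs were −3.08 (adjusted p = 0.0202, limma) for PDGFRα+SCA1+ and −2.84 (adjusted p = 0.0307, limma) for PDGFRα−SCA1+. The first was lost without DC of mouse A (adjusted p = 0.0782) or F (0.0697) or without PDGFRα+SCA1+ of mouse E (0.0898) or F (0.0517), and the second without DC of mouse A or F or PDGFRα−SCA1+ of mouse E (0.121 at the highest), by limma.

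Onecut1 was low even in DCs, at 8.45, 3.08 and 5.47, and reached the level needed for testing only through them. Onecut1 was listed at 0 in PDGFRα+SCA1− (at least 45.9-fold lower, adjusted p = 0.00625, limma), and was 0, 0.625 and 0.68 in PDGFRα+SCA1+ (−2.17, adjusted p = 0.0214, limma). The latter call was lost without DC of mouse A or F or PDGFRα+SCA1+ of mouse A, the highest adjusted p being 0.0917 (limma). In PDGFRα−SCA1+ it was 4.34, 0 and 0.456, overlapping DCs through mouse A, and the difference of −1.67 did not pass (adjusted p = 0.0711, limma); without that library it was −2.38 (adjusted p = 0.00661, limma).

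Prox1 was 93.6, 68.3 and 72.6 in DCs, 5.51, 1.45 and 4.85 in PDGFRα+SCA1+, 9.24, 2.27 and 0.065 in PDGFRα+SCA1−, and 3.68, 14.1 and 5.31 in PDGFRα−SCA1+. All DC samples were above all others, and the 3 stromal fractions overlapped. The fractions were 19.9-fold, 20.3-fold and 10.2-fold below DCs in that order (adjusted p = 0.00194, 0.00084 and 0.00713, limma). Prox1 is also a lymphatic gene. A list of 12 other genes of lymphatic endothelium was read beside it. The list is not specific to lymphatic cells: it includes Thy1 and Reln, which the study treats as markers of portal fibroblasts and of stellate cells. Of the 12 genes 10 could be tested, and 7, 6 and 7 were higher than in DCs in the 3 fractions in that order, with 1 lower in PDGFRα−SCA1+. The sums of the list were 1299%, 1002% and 1818% of the DC mean. Podoplanin (Pdpn) led in the PDGFRα+ fractions, with means of 705 (SCA1+) and 473 (SCA1−), whereas Lyve1 averaged 4.37, 3.10 and 156 and Mmrn1 was listed at 0 in every group. The part of lymphatic cells in the Prox1 levels was not tested. The antisense Prox1os was at 13.5, 16.7 and 20.3 in DCs and at 0.185 or below elsewhere.

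Between the PDGFRα+SCA1+ and PDGFRα+SCA1− fractions 0 of the 8 genes passed by limma, and 0 had an unadjusted p under 0.05, where 0.587% of genes tested (100) were called. With the mouse in the fit as a block the count of genes fell to 20, and 1 of the 8, Foxa3, had an unadjusted p under 0.05 (adjusted p = 0.349, limma). Of the 100 calls, 74.0% were higher in PDGFRα+SCA1+, or 57.4% after quantile normalization. The widest gap was in Foxa3, 1.79 higher in PDGFRα+SCA1+ (95% interval −0.07 to 3.66, adjusted p = 0.451, limma), where mouse E had 1 read beside none in PDGFRα+SCA1−. The Sox9 difference was 0.05 with a 95% interval of −0.99 to 1.10.

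In culture the 8 factors moved in different directions. From DC day 0 to EM organoids, Onecut1, Foxa2 and Sox4 rose and Foxa1 and Prox1 fell, 5 of 8 genes in all, where 44.4% of 18136 genes tested were called (27.1% higher and 17.2% lower). From DC day 0 to co-cultured organoids, Foxa2 and Onecut1 rose and Prox1, Sox9 and Foxa1 fell, again 5 of 8, against 42.3% of genes tested (23.2% higher and 19.1% lower). Both shares of members were near those of all genes. Between co-cultured and EM organoids, Onecut1, Prox1, Sox9 and Sox4 were lower in co-culture, 4 of 8, against 12.9% of genes called and 7.21% called lower. These 3 comparisons share samples. Between the organoids the summed leukocyte genes moved too, at 96.9 and 114 TPM in co-culture against 25.4 and 31.0 in EM, with 1 of 8 genes tested higher and Clec4f at 0 in both. The sum of 8 glial and mesothelial genes was 3913 and 4538 TPM against 311 and 347, of which Msln (mesothelin) made up means of 4189 and 311, while Wt1 was listed at 0 in co-culture. Of 7 of these genes tested 1 was higher and 1 lower, and the part of either list in the differences of the factors was not tested.

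**Figure D2:**
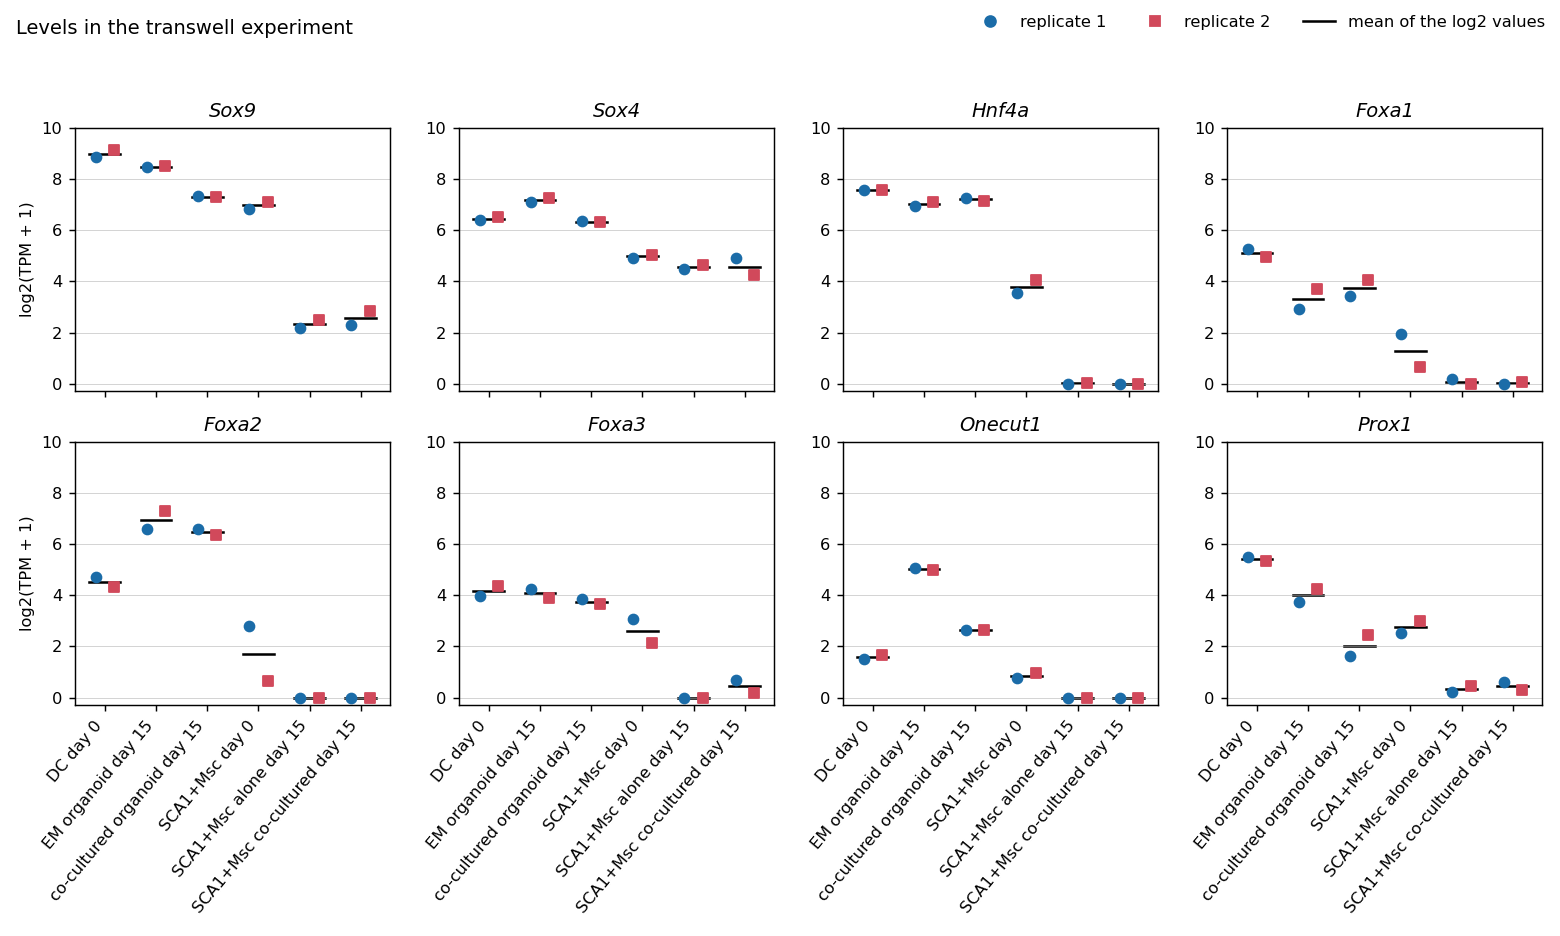
Levels of the 8 factors in each of the 12 transwell samples, as log2(TPM + 1), with one panel per gene, points for replicates 1 and 2, and a line at the mean of the log2 values (n = 2). Onecut1 reaches 31.1 and 32.5 TPM only in EM organoids, and cultured SCA1+Msc keep Sox4 at 18.3 TPM or above with the other 7 genes at 6.1 TPM or below.

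Onecut1 showed the largest rise of the 8. It was 1.84 and 2.18 TPM in DC day 0, 32.5 and 31.1 in EM organoids, and 5.33 and 5.32 in co-cultured organoids, with no overlap between any pair of groups. It was 15.9-fold higher in EM organoids than in DC day 0 (3.45 ± 0.26, adjusted p = 8.23e-06, limma), 2.65-fold higher in co-cultured organoids (1.08 ± 0.26, adjusted p = 0.00903, limma), and 5.97-fold lower in co-cultured than in EM organoids (−2.37 ± 0.26, adjusted p = 0.000455, limma). Each call was kept without any 1 library. The related Onecut3 was listed at 0 in DC day 0 and averaged 1.58 ± 0.71 TPM (SD, n = 2) in co-cultured organoids (1.34, adjusted p = 0.00511, limma).

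The FOXA genes changed places. Foxa2 was 25.4 and 18.9 TPM in DC day 0, 96.2 and 156 in EM organoids, and 95.2 and 81.4 in co-cultured organoids. It rose 5.68-fold in EM organoids (2.43 ± 0.57, adjusted p = 0.00645, limma) and 3.98-fold in co-cultured organoids (1.95 ± 0.57, adjusted p = 0.0198, limma). Every cultured sample was above every fresh one, but the first call was lost without EM replicate 2 (adjusted p = 0.0541, limma) and the second without any 1 of its 4 libraries (adjusted p 0.0532 to 0.105, limma). Foxa1 went the other way, with 38.0 and 29.9 TPM in DC day 0, 6.55 and 11.9 in EM organoids, and 9.68 and 15.7 in co-cultured organoids. It fell 3.68-fold (−1.82 ± 0.46, adjusted p = 0.00938, limma) and 2.67-fold (−1.38 ± 0.46, adjusted p = 0.0350, limma). The fall in EM was lost without DC replicate 1 or EM replicate 1, the highest adjusted p being 0.0764, and that in co-culture without DC replicate 1 or 2 or co-cultured replicate 1, the highest being 0.198 (limma). Foxa3 was 14.5 and 19.8 in DC day 0, 17.8 and 14.1 in EM and 13.4 and 11.7 in co-culture, and neither difference passed (−0.10 with a 95% interval of −0.92 to 0.72, and −0.42 with one of −1.24 to 0.41). None of the 3 passed between co-cultured and EM organoids, where Foxa2 differed by −0.47 (95% interval −1.75 to 0.80) and Foxa1 by 0.44 (−0.59 to 1.46).

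**Figure D3:**
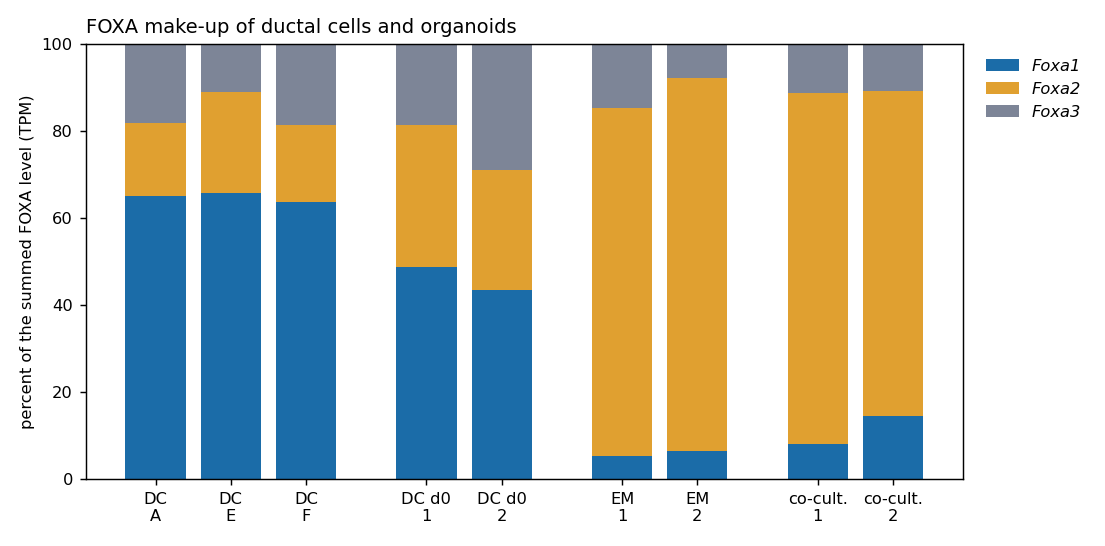
Share of Foxa1, Foxa2 and Foxa3 in their summed level (TPM, per sample) in DCs of mice A, E and F, DC day 0, EM organoids and co-cultured organoids (replicates 1 and 2). Foxa1 makes up 63.7% to 65.8% in DCs and 43.5% and 48.7% in DC day 0, and Foxa2 makes up 74.8% to 85.7% in the cultured samples.

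Foxa1 thus had the largest share of the summed FOXA level in all 5 fresh DC samples and Foxa2 in all 4 organoid samples. In DC day 0 Foxa1 was 48.7% and 43.5% of the sum, Foxa2 32.6% and 27.6%, and Foxa3 18.7% and 28.9%. In EM organoids Foxa1 was 5.44% and 6.54% and Foxa2 79.8% and 85.7%, and in co-cultured organoids Foxa1 was 8.18% and 14.5% and Foxa2 80.5% and 74.8%. The sum itself was 78.0 and 68.7 TPM in DC day 0, 121 and 182 in EM organoids, and 118 and 109 in co-cultured organoids. No test was run on these shares.

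Sox9 was lowest in co-cultured organoids among the 3 ductal groups. It was 466 and 558 TPM in DC day 0, 350 and 363 in EM organoids, and 161 and 154 in co-cultured organoids, with no overlap. The fall to co-cultured organoids was 3.25-fold from DC day 0 (−1.69 ± 0.19, adjusted p = 0.000107, limma) and 2.26-fold from EM organoids (−1.17 ± 0.19, adjusted p = 0.00396, limma), and both calls were kept without any 1 library. The EM difference from DC day 0 of −0.51 (95% interval −0.95 to −0.08) missed the threshold (adjusted p = 0.0557, limma) and passed it on the RPKM scale (adjusted p = 0.0377), with a higher value minimum (0.0441), after quantile normalization (0.0175) and with a replicate block (0.0265), by limma in each. Over the same groups the sum of 18 ductal genes was at 60.2% of DC day 0 in EM and 63.5% in co-cultured organoids, and between the organoids 3 of these genes were higher in co-culture, 1 lower and 14 not called. Of the list Krt19, a duct keratin, averaged 2671, 1686 and 14911 TPM, and Spp1 (osteopontin) 44384, 42469 and 18315 TPM.

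Sox4 was 84.1 and 89.4 TPM in DC day 0, 137 and 153 in EM organoids, and 81.8 and 78.3 in co-cultured organoids. It was 1.67-fold higher in EM organoids (0.73 ± 0.19, adjusted p = 0.0127, limma) and 1.81-fold lower in co-cultured than in EM organoids (−0.84 ± 0.19, adjusted p = 0.0198, limma), while co-cultured organoids and DC day 0 differed by −0.11 (95% interval −0.55 to 0.32). The EM call was lost without DC replicate 1 (adjusted p = 0.0666) or EM replicate 2 (0.0794), and the call between the organoids without any 1 of the 4 libraries (0.0696 to 0.129, limma).

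Hnf4a passed the test in none of the 3 ductal comparisons. It was 187 and 192 TPM in DC day 0, 123 and 138 in EM organoids, and 152 and 142 in co-cultured organoids. The differences from DC day 0 were −0.54 (95% interval −0.98 to −0.09, adjusted p = 0.0519, limma) and −0.36 (−0.81 to 0.08, adjusted p = 0.176, limma), and the organoids differed by 0.17 (−0.27 to 0.62). The EM difference passed on the RPKM scale (adjusted p = 0.0347), in a fit of the 2 groups alone (0.0240), with a higher value minimum (0.0456) and after quantile normalization (0.0141), and the co-culture difference passed in a fit of the 2 groups alone (0.0288) and after quantile normalization (−0.56, adjusted p = 0.0475), by limma in each. In the same samples the hepatocyte gene Alb fell from a mean of 3779 TPM in DC day 0 to 462 in EM organoids and 15.3 in co-cultured organoids.

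Prox1 fell furthest in co-culture. It was 43.8 and 39.5 TPM in DC day 0, 12.5 and 17.8 in EM organoids, and 2.06 and 4.51 in co-cultured organoids. It was 2.74-fold lower in EM (−1.42 ± 0.36, adjusted p = 0.00941, limma), 12.7-fold lower in co-culture (−3.37 ± 0.36, adjusted p = 6.33e-05, limma) and 4.62-fold lower in co-culture than in EM (−1.96 ± 0.36, adjusted p = 0.00629, limma). The EM call was lost without DC replicate 1 or EM replicate 1, and that between the organoids without EM replicate 2 or co-cultured replicate 1, the highest adjusted p being 0.0731 and 0.0612 (limma). The hepatocyte sum was at 41.7% of DC day 0 in EM organoids and 7.26% in co-cultured organoids. Of 19 hepatocyte genes tested, 13 were lower than in DC day 0 in each, and 1 was higher in co-culture. Between the organoids, however, 1 was higher, 1 lower and 17 not called. The part of these genes in the Prox1 level was not tested. Prox1os was 11.4 and 5.98 TPM in DC day 0, 0.677 and 2.46 in EM organoids, and 0 in co-cultured organoids.

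**Figure D4:**
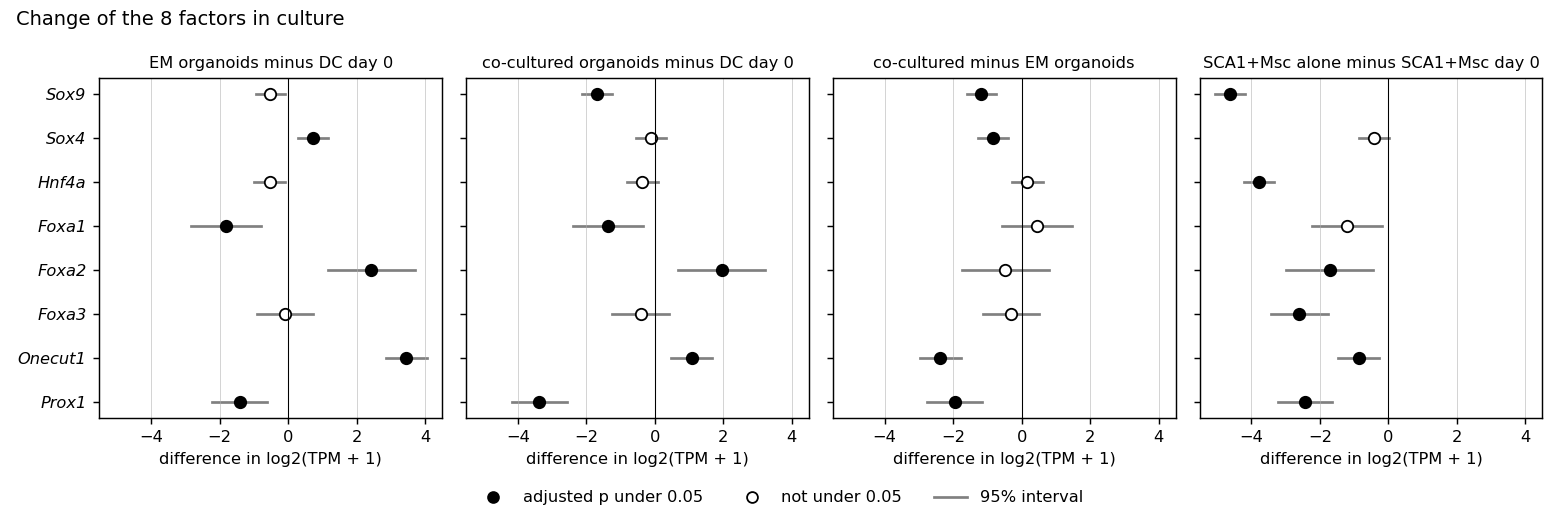
Differences in log2(TPM + 1) with 95% intervals for the 8 factors in 4 transwell comparisons (limma, n = 2 per group), filled points having an adjusted p under 0.05. Onecut1 and Foxa2 lie to the right of 0 and Foxa1 and Prox1 to the left in both organoid comparisons with DC day 0, and in SCA1+Msc all 8 points lie to the left.

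In freshly sorted SCA1+Msc 8 of 8 factors were below DC day 0, where 46.1% of genes tested were called and 24.7% were called lower. Sox9 was 113 and 136 TPM, 4.11-fold below DC day 0 (−2.03 ± 0.19, adjusted p = 2.56e-05, limma) and 24.4% of its mean, where the summed ductal genes were 2.27% and 5.31%. Hnf4a was 10.8 and 15.5 TPM (14.4-fold lower), Sox4 29.4 and 31.9 (2.83-fold), Prox1 4.76 and 7.06 (7.04-fold) and Foxa3 7.42 and 3.36 (3.19-fold). Foxa1 was 2.80 and 0.576 and Foxa2 5.90 and 0.563, both higher in replicate 1, whereas the ductal sum was higher in replicate 2. The hepatocyte sum in these samples was 543% and 446% of the DC day 0 mean, and its part in these levels was not tested. The Onecut1 difference of −0.72 (adjusted p = 0.0490, limma) was lost without any 1 of its 4 libraries (0.0575 to 0.163).

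After 15 days alone 6 of 8 factors were lower in SCA1+Msc than at day 0, where 44.8% of genes tested were called and 17.5% were called lower. Sox9 was 3.56 and 4.63 TPM, 30.4-fold lower (−4.63 ± 0.19, adjusted p = 2.90e-07, limma). Hnf4a was at 1 read or none (−3.78, adjusted p = 1.00e-06, limma), Foxa3 was listed at 0 (at least 27.5-fold lower, adjusted p = 0.000361, limma), and Prox1 was 0.171 and 0.356 (22.4-fold lower, adjusted p = 0.000449, limma). Foxa2 and Onecut1 were listed at 0 (at least 19.2-fold and 8.47-fold lower, adjusted p = 0.0332 and 0.0244, limma). The Foxa2 call was lost without either SCA1+Msc alone replicate or without day 0 replicate 1, where it was −0.64, and the Onecut1 call without either SCA1+Msc alone replicate or without day 0 replicate 2. Sox4 was 21.3 and 23.8 TPM and did not pass (−0.43, 95% interval −0.86 to 0.01, adjusted p = 0.105, limma), but did after quantile normalization (−0.60, adjusted p = 0.0294) and on the RPKM scale (−0.48, adjusted p = 0.0484, limma). Foxa1 at 0.123 and 0 did not pass (adjusted p = 0.0555, limma), but did without day 0 replicate 2 (−1.84, adjusted p = 0.00819), with a higher value minimum (0.0429) and with a pseudocount of 0.1 (0.00885, limma). Over the same time the hepatocyte sum went to 2.24% of DC day 0 and the ductal sum to 0.536%, and their part in the changes was not tested.

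Growing SCA1+Msc below DCs changed none of the 8 past the test. By limma 0 of 8 were called and 0 had an unadjusted p under 0.05, against 0.127% (23) of genes tested. Sox9 was 3.97 and 6.10 TPM in co-culture, and its difference from SCA1+Msc alone was 0.23 with a 95% interval of −0.21 to 0.66. Sox4 was 28.8 and 18.3 TPM (0.02, −0.41 to 0.46). Hnf4a, Foxa2 and Onecut1 were listed at 0 in both co-cultured samples.

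Of 24 other hepatobiliary transcription factors, 22 could be tested in homeostasis. In PDGFRα+SCA1+ 11 were lower and 2 higher than in DCs, where 23.8% of all genes tested were called. The counts were 11 and 5 in PDGFRα+SCA1− (28.8% of all genes) and 11 and 3 in PDGFRα−SCA1+ (22.8%). The factors that fell most in PDGFRα+SCA1+ were the epithelial ETS factors Elf3 (378 in DCs, −8.53) and Ehf (299, −7.99). Gata4, a GATA factor of stellate and endothelial cells, was higher in all 3 stromal fractions, at 130, 127 and 324 beside 0.394 in DCs. Of these factors 23 could be tested in the transwell experiment, where 7 rose and 4 fell in EM organoids and 6 rose and 6 fell in co-cultured organoids, shares near the 44.4% and 42.3% of all genes called. The homeobox gene Hhex rose in EM organoids from 136 to 477 TPM (1.82, adjusted p = 0.000229, limma) and was at 186 TPM in co-culture, lower than in EM (−1.35, adjusted p = 0.00547, limma). Nr5a2 (LRH-1, a nuclear receptor of bile acid synthesis) fell from 18.3 to 3.95 and 0.752 TPM in EM and co-cultured organoids (−1.96 and −3.49, adjusted p = 0.00087 and 2.63e-05, limma). Between the organoids 2 of the 23 were higher and 3 lower in co-culture, where 12.9% of all genes tested were called. Nr1h4 (FXR, the bile acid receptor) was among the higher (1.81, adjusted p = 0.00169, limma).

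Of 15 other SOX genes, 8 could be tested in homeostasis. In PDGFRα−SCA1+ 4 were higher and 2 lower than in DCs, where 22.8% of all genes tested were called. The SOXF genes of endothelium led, with Sox7 at 1087, Sox18 at 886 and Sox17 at 110 in PDGFRα−SCA1+, the fraction in which Sox9 was lowest. In PDGFRα+SCA1+ cells Sox7 and Sox8 were higher than in DCs, at 27.5 and 22.5. In EM organoids 2 of 8 other SOX genes tested rose and 4 fell, where 44.4% of all genes tested were called. Sox17 went from 2.24 to 24.6 TPM (2.98, adjusted p = 0.00201, limma) and Sox7 from 15.6 to 2.12 TPM (−2.44, adjusted p = 0.000103, limma). Sox7 was 16.0 TPM in co-cultured organoids, above EM (2.47, adjusted p = 0.000517, limma), the reverse of Sox9 and Sox4 in that comparison.

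The genes whose pattern over samples was closest to each factor were found among 13367 genes tested in both experiments, ranked by the lower of 2 Pearson correlations of log2(level + 1), each over 12 samples that share groups. They are a description of these samples. For Sox9 the first was Cp (ceruloplasmin, r = 0.92 in homeostasis and 0.95 in the transwell experiment), for Sox4 Spint2 (0.95 and 0.96), for Hnf4a the tricellular junction gene Lsr (0.974 and 0.996), for Foxa1 Cdcp1 (0.99 and 0.98), for Foxa2 Wfdc2 (0.997 and 0.986), for Foxa3 Phlda2 (0.93 and 0.94), for Onecut1 the bilirubin-conjugating enzyme Ugt1a1 (0.90 and 0.91) and for Prox1 Clcf1 (0.96 and 0.95). Onecut2 was the third for Foxa2 (0.98 and 0.96), and Pkhd1, the fibrocystin gene of cholangiocyte cilia, the third for Prox1 (0.92 and 0.94). Among the 8 themselves, Foxa1 and Foxa2 were closest in homeostasis (r = 0.98) and less close in the transwell experiment (0.85), whereas Sox9 and Sox4 had r = 0.12 in homeostasis and 0.85 in the transwell experiment.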

How the data were processed

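RNA of sorted or cultured cells was amplified by Smart-seq2 with Nextera XT tagmentation, aligned with STAR (2.5.0a in the submitters' processing notes) to GRCm38/mm10 and counted per gene with featureCounts by the authors; strand is not marked. The authors deposited RPKM for the transwell experiment, scaled here to TPM by the total of each sample. The table deposited for homeostasis holds RPKM divided by column totals that were reused along the rows, so values lie 0.722 to 1.39 times TPM and columns sum to 847270 to 1173511; within-gene results use the deposited values, and TPM with this reuse undone served to compare genes. The reuse was found from the values and is not stated in the sources used here. A limma fit with the reuse undone changed no call of the 8 genes. Its medians over all genes against DC were −0.12 (PDGFRα+SCA1+), −0.29 (PDGFRα+SCA1−) and 0 (PDGFRα−SCA1+). 4 columns of the authors' means were not used. Whole reads were recovered with GENCODE M21 exon lengths (92.9% and 93.0% of low values within 0.02 of a whole read).

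Genes that reached 1 in 3 or more homeostasis samples, or 2 or more transwell samples, were fitted with limma 3.58.1 (R 4.3.3) on log2(value + 1), with 1 mean per group over the 12 samples of an experiment, an intensity trend, two-sided tests and Benjamini-Hochberg adjustment over all genes tested. A fold is the ratio of group means, or is measured against a floor of 3 reads per library where a group was at 0; log2 differences understate changes of low genes. All 8 genes passed the filter in both experiments. Homeostasis samples of the same letter come from the same mouse by the labels (deviations correlated at 0.0102 to 0.0973). Transwell samples share a number, and whether they also share an animal is not known. The study's methods describe the transwell replicates as biological replicates from pairs of littermates, but the labels tie no sample to an animal. On simulated data with 200 genes changed by 2 on the log2 scale, the fit found 20.5% (PDGFRα+SCA1+ against DCs, 17028 genes) and 44.5% (EM organoids against DC day 0, 18136 genes). Alternatives were other pseudocounts, filters, scalings and fits, a replicate block and leaving out each library. The named genes outside the 8 were up to 3 rises and 3 falls per comparison without overlap between groups, the leading markers, and the 3 most alike genes per factor. The 8 genes and all lists were chosen with earlier results of these data known.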

Additional observations from a re-analysis of the deposited data

Results flagged for a closer look

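The difference between the response of ductal cells and that of SCA1+Msc to culture was tested as a contrast of the same limma fit, chosen after the data were seen. For growth alone (EM organoids minus DC day 0, less SCA1+Msc alone minus SCA1+Msc day 0), 26.8% of 18136 genes were called. Of the 8 factors, 6 differed, each having changed less downward or more upward in ductal cells: Sox9 by 4.11 (adjusted p = 1.57e-05), Sox4 by 1.16 (0.0133), Hnf4a by 3.24 (6.19e-05), Foxa2 by 4.14 (0.00498), Foxa3 by 2.5 (0.00689) and Onecut1 by 4.31 (6.37e-05), all on the log2 scale by limma. Foxa1 (−0.61, adjusted p = 0.539) and Prox1 (1.02, adjusted p = 0.172) were not called. In SCA1+Msc Foxa1 averaged 1.69 TPM at day 0 and 0.0613 alone, and Prox1 5.91 and 0.263. In ductal cells Foxa1 went from 34.0 to 9.22 TPM and Prox1 from 41.6 to 15.2. With 1 added before the log2, falls at such low levels are understated in SCA1+Msc. Whether these 2 genes differ between the cell types therefore cannot be read from the contrast. The media of these cultures differed as well as the cell types. The hepatocyte sum in SCA1+Msc averaged 495% of DC day 0 when fresh and 2.24% alone, and its part in these contrasts was not tested. Foxa2 in SCA1+Msc day 0 was 5.90 TPM in 1 library and 0.563 in the other. Onecut1 averaged 0.822 TPM there and had little room to fall, and its difference in ductal cells was 3.45.

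For co-culture against growth alone, 4.85% of genes differed between the cell types. Of the 8 factors 3 were called, Sox9 (−1.40, adjusted p = 0.0194), Onecut1 (−2.37, adjusted p = 0.00723) and Prox1 (−2.08, adjusted p = 0.0489, limma), all lower in co-cultured than in EM organoids. Onecut1 was listed at 0 in all 4 cultured SCA1+Msc samples, so its value is that of the ductal cells alone. Prox1 was at 0.171 and 0.356 TPM in SCA1+Msc alone and so had almost no room to fall there, and its call between the organoids was lost without EM replicate 2 or co-cultured replicate 1.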

How the results depend on the processing

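The differences of the 8 factors kept their direction and their side of the threshold in 654 of 699 values over the other settings; 28 lost the call, 14 gained it and 3 turned direction. With 1 library left out, 366 of 432 stayed so, 44 lost the call, 2 gained it and 20 turned. All that turned were not called. Over the settings other than leaving out a library, the counts of genes or factors stayed within 1.5 times in 161 of 176, and with a library left out in 86 of 108. Where a count moved, the cause was not tested.

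With a pseudocount of 0.1, 3 factors were called in EM organoids and 3 in co-cultured organoids against DC day 0, beside 7635 and 7367 of 18136 genes tested. Between co-cultured SCA1+Msc and SCA1+Msc alone 40 genes were called. With that pseudocount the calls of Foxa3 and Onecut1 in PDGFRα+SCA1+ (adjusted p = 0.0656 and 0.0658), of Foxa3 and Prox1 in PDGFRα−SCA1+ (0.126 and 0.0622), of Hnf4a between these fractions (0.0553), of Foxa1 and Prox1 in EM organoids (0.0741 and 0.0560), of Onecut1 in SCA1+Msc day 0 (0.0724) and of Foxa2 and Foxa1 in co-cultured organoids (0.0935 and 0.172) were lost (limma). For the cultured SCA1+Msc 51 genes were called without a filter and 15 with a minimum of 5. Without a filter Foxa3 in PDGFRα−SCA1+ (adjusted p = 0.0656), Hnf4a between this fraction and PDGFRα+SCA1+ (0.0555) and Foxa1 in co-cultured organoids (0.0679) were lost. So were Onecut1 in SCA1+Msc day 0 (0.0952) and Foxa2 and Onecut1 in SCA1+Msc alone (0.0636 and 0.0522, limma). The RPKM scale lost Onecut1 in SCA1+Msc day 0 (0.0926) and Foxa2 and Onecut1 in SCA1+Msc alone (0.0681 and 0.109, limma). A fit of only the 2 groups compared called 0 genes between the PDGFRα+ fractions (1606 at an unadjusted p under 0.05, limma) and 0 between the cultured SCA1+Msc (1515), 6662 between PDGFRα+SCA1+ and DC, 997 between the organoids, 5299 genes and 5 factors between SCA1+Msc day 0 and DC day 0 (losing Foxa2, 0.117, Foxa3, 0.0992, and Onecut1, 0.0831), and 4299 between SCA1+Msc alone and day 0 (losing Foxa2, 0.265); it also lost Hnf4a between PDGFRα−SCA1+ and PDGFRα+SCA1+ (0.0574), Foxa1 in co-cultured organoids (0.0547) and Prox1 between the organoids (adjusted p = 0.129, limma). Quantile normalization left 54 genes between the PDGFRα+ fractions, and there Prox1 (−0.15), Foxa2 (−0.023) and Foxa1 (−0.26) turned direction. It moved the median log2 difference of all genes from −0.28 to −0.10 (PDGFRα+SCA1+ against DC), from −0.47 to −0.13 (PDGFRα+SCA1−), from 0.25 to 0.04 (PDGFRα−SCA1+ against PDGFRα+SCA1+), from 0.15 to 0.01 (the PDGFRα+ fractions), from 0.12 to 0 (EM organoids) and from −0.13 to −0.01 (between the organoids). With the replicate block, 20 genes remained called between the PDGFRα+ fractions, of which 16 were among the 100, and 5 between the cultured SCA1+Msc. No call of the 8 changed in homeostasis. In the transwell experiment Sox9 in EM organoids was gained (adjusted p = 0.0265) and Onecut1 in SCA1+Msc day 0 lost (0.0662, limma). Whether transwell samples of the same number share an animal is not given by the labels. Their correlations (0.00428 to 0.0295) cannot decide it, since same-mouse samples in homeostasis went as low as 0.0102.

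Leaving out each library in turn gave 2668 to 3229 genes called for PDGFRα+SCA1+ against DC, 3251 to 5115 for PDGFRα+SCA1− against DC, 6 (without PDGFRα+SCA1+ of mouse F) to 392 (without PDGFRα+SCA1− of mouse E) between the PDGFRα+ fractions, 1093 to 1310 between the organoids, and 0 (without SCA1+Msc alone replicate 1 or co-cultured replicate 1, with 1075 and 953 genes at an unadjusted p under 0.05, limma) to 27 between the cultured SCA1+Msc. The factors called ranged from 2 to 5 for EM organoids, 3 to 4 for co-cultured organoids and 2 to 3 between the organoids. Differences that turned direction ranged, between the PDGFRα+ fractions, from −0.36 to 0.31 (Sox9), −0.83 to 0.50 (Hnf4a), −0.023 to 0.069 (Foxa1) and −0.35 to 1.28 (Prox1); for PDGFRα−SCA1+ against PDGFRα+SCA1+, from −0.00078 to 1.20 (Foxa1), −0.036 to 1.69 (Foxa2), −0.60 to 1.03 (Foxa3) and −0.21 to 0.996 (Onecut1); for EM organoids, from −0.31 to 0.11 (Foxa3); and between the cultured SCA1+Msc, from −0.028 to 0.49 (Sox9), −0.29 to 0.34 (Sox4), −0.14 to 0.031 (Foxa1) and −0.034 to 0.28 (Prox1). In transwell fits a lone sample is assumed to vary like the other groups.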
